A study of Mus musculus with 16 samples.

Results

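The genes described here are 7 of the 19715 genes in the deposited matrix, 4 hemoglobin genes (Hba-a1, Hba-a2, Hbb-bs and Hbb-bt) and 3 genes of red-cell metabolism (Alas2, Bpgm and Car2). They were chosen by name, from their measured levels in these same cells, as a set in which erythroid cells can be set against free RNA spread over other cells. They are followed here over every cell type name and condition of the study. NB9464D, a neuroblastoma line of the mouse, had been injected under the skin of male C57BL/6 mice, 8 weeks old, whose genotype was CD200R-/- (KO; the growth protocol writes CD200-/-) or wild type (WT). Tumors were taken on day 28, disrupted and digested with Type IV collagenase at 1 mg/mL, and loaded as FACS-sorted CD45+ leukocytes or as total tumor cells on 10x Genomics 3' chemistry. The 4 groups are KO sorted, WT sorted, KO tumor and WT tumor. The labels list 4 samples in each, but the cells carry the group name alone, so each group is 1 library, and no test, p-value or spread between replicates is given. Differences between genotypes cannot be told apart from differences between animals or preparations. Intervals are at 95% and cover counting error only.

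Hemoglobin is a tetramer of alpha chains, encoded in the mouse by Hba-a1 and Hba-a2, and beta chains, encoded in C57BL/6 mice by Hbb-bs and Hbb-bt. Alas2 encodes the erythroid form of the first enzyme of heme synthesis, Bpgm makes 2,3-bisphosphoglycerate, which lowers the oxygen affinity of hemoglobin, and Car2 is a carbonic anhydrase found in red cells and in several other cell types. Reticulocytes, the youngest red cells of the blood, have lost their nucleus but still hold these messenger RNAs in large amounts, and lysed red cells release such RNA into the suspension from which droplets are made.

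The DNA before the transcript starts of the 4 globin genes and Alas2 is shown because their RNAs were found in the same few cells. Of the 7 genes, 6 had an entry in RefSeq's promoter table on GRCm38.p6, the patch release of mm10. Car2 is named only. Each line gives the 120 bases before the RefSeq start, 5' to 3' on the strand of the gene, in lower case. Capitals mark every match on either strand of CACCC or of CCAAT or of AGATAA or TGATAA or of ATATAA or TATAAA, so that GGGTG or ATTGG or TTATCT is a match on the opposite strand. The windows are chr11:32283552-32283671 and chr11:32296372-32296491 on the plus strand, chr7:103827929-103828048 and chr7:103813924-103814043 on the minus strand, and chrX:150547297-150547416 on the plus strand.
Hba-a1: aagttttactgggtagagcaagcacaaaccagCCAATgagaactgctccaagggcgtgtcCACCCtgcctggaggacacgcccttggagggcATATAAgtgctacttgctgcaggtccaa
Hba-a2: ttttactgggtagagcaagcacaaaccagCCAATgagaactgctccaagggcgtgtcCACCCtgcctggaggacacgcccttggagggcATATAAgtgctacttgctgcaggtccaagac
Hbb-bs: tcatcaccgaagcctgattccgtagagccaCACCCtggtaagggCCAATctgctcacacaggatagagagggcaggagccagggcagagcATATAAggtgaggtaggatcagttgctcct
Hbb-bt: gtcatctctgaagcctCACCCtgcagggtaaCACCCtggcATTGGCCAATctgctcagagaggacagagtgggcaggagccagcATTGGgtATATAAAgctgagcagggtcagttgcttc
Alas2: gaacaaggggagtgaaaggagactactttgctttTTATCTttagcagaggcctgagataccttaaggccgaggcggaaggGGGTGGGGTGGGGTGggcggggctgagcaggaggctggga
All 4 globin windows held CACCC and CCAAT and ATATAA, and in the Hbb-bt window ATATAA overlapped a TATAAA. Over 250 bases before the start, Hba-a1 and Hba-a2 agreed at 247 of 247 aligned bases, and Hbb-bs and Hbb-bt at 175 of 244. The 4 windows are thus not separate matches. The Alas2 window held 3 CACCC matches and 1 AGATAA, all on the opposite strand. The Bpgm window, which is not printed, held 1 CCAAT and none of the other sequences. Over all 32851 promoters of the table, windows of the same length held CACCC in 31.7%, CCAAT in 21.3%, ATATAA or TATAAA in 8.74%, AGATAA or TGATAA in 7.63%, and the first 3 of these together in 0.539%. These are matches of letters, with no measurement of binding.

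By GENCODE vM21 on mm10, Hba-a1 lies at chr11:32283511-32284465 and Hba-a2 at chr11:32296489-32297298 (plus strand), and Hbb-bs at chr7:103826534-103828096 and Hbb-bt at chr7:103812524-103813996 (minus strand). Alas2 is at chrX:150547375-150570638, Bpgm at chr6:34476207-34505613 and Car2 at chr3:14886273-14900770, all on the plus strand. The coding sequences of Hba-a1 and Hba-a2 agreed at 428 of 429 bases and all 74 aligned bases after the stop codon were identical, so the division of UMIs between these copies is uncertain. Hbb-bs and Hbb-bt agreed at 443 of 444 coding bases but at only 93 of 129 aligned bases after the stop codon (72.1%), the end that 3' chemistry reads.

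The libraries held 4305 KO sorted, 5219 WT sorted, 5897 KO tumor and 4955 WT tumor cells, with medians of 3127, 4665, 16276 and 19850 UMIs (unique molecules counted) and of 6.36%, 4.19%, 8.05% and 6.11% mitochondrial UMIs per cell. These differ between genotypes in the same libraries as hemoglobin, and their part in the differences was not tested. Cd200r1, which encodes CD200R, had 0 UMIs in the KO sorted and 2888 in the WT sorted library, and 5 in the KO tumor and 76 in the WT tumor library, so the counts went with the genotype label. Across the libraries 113 cell barcodes occurred more than once, in 307 cells, none of which had 30 or more hemoglobin UMIs. Cell type names are spelled as the authors gave them.

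Hemoglobin RNA, the sum of the 4 globin genes, was far lower in the KO sorted than in the WT sorted library and lower in the KO tumor than in the WT tumor library. It came to 102 UMIs in KO sorted, 189101 in WT sorted, 48936 in KO tumor and 103500 in WT tumor cells. Scaled to all UMIs of the library (CPM) this was 3.49 (2.85 to 4.24) in KO sorted against 3025 (3012 to 3039) in WT sorted cells, and 471 (467 to 475) in KO tumor against 1002 (996 to 1008) in WT tumor cells. The log2 ratio of CPM, KO over WT, was -9.76 (-10.05 to -9.48) for sorted and -1.09 (-1.10 to -1.07) for tumor libraries.

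Most of this RNA lay in few cells. A cell is called high-hemoglobin here when at least 10% of its UMIs were hemoglobin, which is a range of a per-cell share and not a cell type. There were 0 such cells among the KO sorted cells (0 of 4305, which allows a share of up to 0.0697% at a floor of 3 counts and 0.0857% by the Clopper-Pearson limit), 18 among the WT sorted (0.345%), 13 among the KO tumor (0.220%) and 20 among the WT tumor cells (0.404%). They held 98.6% of the hemoglobin UMIs of the WT sorted library, 92.4% of the KO tumor library and 64.5% of the WT tumor library. In the KO sorted library 1 cell with 75 hemoglobin UMIs, 9.20% of its own total, held 73.5%. Just inside the threshold lay cells of 16.1% in WT sorted, 11.3% in KO tumor and 10.5% in WT tumor libraries, and just outside it cells of 3.16%, 5.64% and 9.70% of these libraries in the same order.

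**Figure D1:**
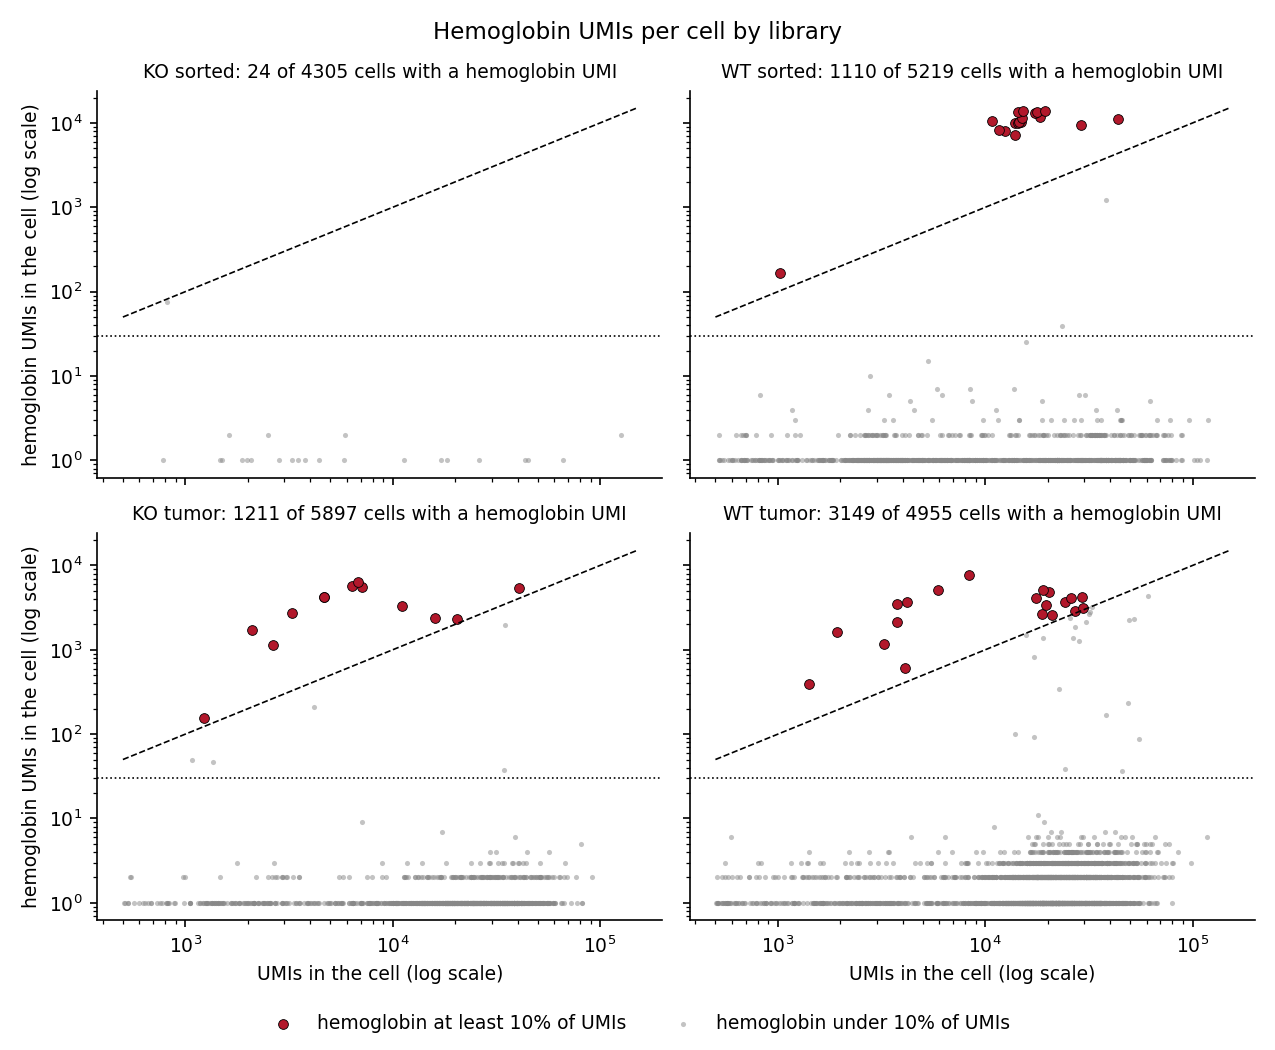
Hemoglobin UMIs per cell against total UMIs per cell (both axes logarithmic) in the KO sorted, WT sorted, KO tumor and WT tumor libraries, with high-hemoglobin cells marked. The 18, 13 and 20 high-hemoglobin cells of the WT sorted, KO tumor and WT tumor libraries stand above the mass of cells, and the KO sorted library has none.

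The KO over WT differences rested on these few cells in unlike ways. Without the high-hemoglobin cells the log2 ratio was -3.62 for sorted and -3.31 for tumor libraries. Without all cells of at least 30 hemoglobin UMIs (1 KO sorted, 20 WT sorted, 18 KO tumor and 42 WT tumor cells, a threshold chosen after seeing the data) it was -4.64 for sorted and -1.92 for tumor libraries. In the deeper cells, each thinned to 2000 UMIs, it was -11.24 for sorted and -0.17 for tumor libraries, and with equal weight per cell -6.65 and -0.50. The median gene had a log2 ratio of 0.40 for sorted and 0.27 for tumor libraries, and relative to it the hemoglobin ratio over all cells was -10.16 and -1.36.

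The high-hemoglobin cells differed in how much other RNA they held. At least 50% of all UMIs were hemoglobin in 7 KO tumor, 6 WT tumor and 15 WT sorted cells. In the tumor libraries such cells were nearly empty of other RNA, with a median of 493 other UMIs and 245 genes in KO tumor and 556.5 other UMIs and 284.5 genes in WT tumor cells. In the WT sorted library they had a median of 4213 other UMIs and 1385 genes. The cells between 10% and 50% (6 KO tumor, 14 WT tumor and 3 WT sorted cells) had medians of 3479.5, 3708 and 2770 genes in that order, many times the number in the tumor cells above 50%.

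Markers of other cell types were present in many of them. At least 3 of the 8 B cell markers were found in 14 of the 18 WT sorted high-hemoglobin cells, and at least 3 of the 8 fibroblast markers in 4 of the 13 KO tumor and 11 of the 20 WT tumor high-hemoglobin cells. No lineage reached 3 markers in 7 KO tumor, 9 WT tumor and 2 WT sorted cells. The share of other cells that pass the same rule is not given here, so these counts only describe the high-hemoglobin cells. Cd79a, a chain of the B cell receptor complex, had 167 UMIs in the WT sorted high-hemoglobin cells. The 8 B cell markers summed to 294 CPM, 0 CPM and 4774 CPM of non-hemoglobin UMIs in the high-hemoglobin cells of the KO tumor, WT tumor and WT sorted libraries, against 53.1, 12.4 and 878 CPM in the other cells. The 8 fibroblast markers summed to 2084, 2519 and 0 CPM in these high-hemoglobin cells, against 1458, 2850 and 436 CPM in the other cells. Of 8 macrophage markers in the WT sorted library the sum was 2351 CPM in high-hemoglobin and 14387 CPM in other cells. The 8 neutrophil markers there summed to 6402 CPM in high-hemoglobin and 1892 CPM in other cells, with all 236 UMIs of S100a8, a calcium-binding protein of neutrophils, in 1 cell. Whether such cells are doublets of a red cell and another cell, or another cell with red-cell RNA in its droplet, was not tested.

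The authors' class Cancer_stem_cells held most high-hemoglobin cells of the WT sorted and KO tumor libraries, and fewer than Fibroblasts in the WT tumor library. It had 15 of the 18 in the WT sorted, 8 of 13 in the KO tumor and 7 of 20 in the WT tumor library. Of the others, 3 KO tumor and 8 WT tumor cells were named Fibroblasts, and 1 KO tumor and 2 WT tumor cells NB_cells. Among WT tumor cells of at least 30 hemoglobin UMIs, NB_cells (17) and Fibroblasts (14) outnumbered Cancer_stem_cells (7). Median mitochondrial UMIs of Cancer_stem_cells were 56.8% in KO sorted and 59.8% in WT sorted, but 0.988% in KO tumor and 1.57% in WT tumor libraries. Their median depths were 1402, 1583, 2171 and 1943 UMIs in the same order. The name thus covers unlike cells in the sorted and tumor preparations.

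Ordered by hemoglobin CPM, Cancer_stem_cells came first in 3 of the 4 libraries, with 19703 in KO tumor, 28555 in WT tumor and 206933 in WT sorted cells. In the KO sorted library the class had 0 hemoglobin UMIs in 137 cells, and 7 of 17 classes of at least 20 cells were at 0. The next places were set by single cells. Hematoietic_stem_cells led the KO sorted library at 122 CPM, of which 75 of 76 UMIs were in 1 cell. Neutrophils were next in the WT sorted library at 8625 CPM (11654 of 11768 UMIs in 1 cell), followed by M2_macrophages at 1342 CPM (11044 of 11256 in 1 cell). B_cells were next in the KO tumor library at 2907 CPM (1126 of 1209 in 1 cell), and Hematoietic_stem_cells in the WT tumor library at 9425 CPM (5186 and 1156 of 6493 in 2 cells).

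**Figure D2:**
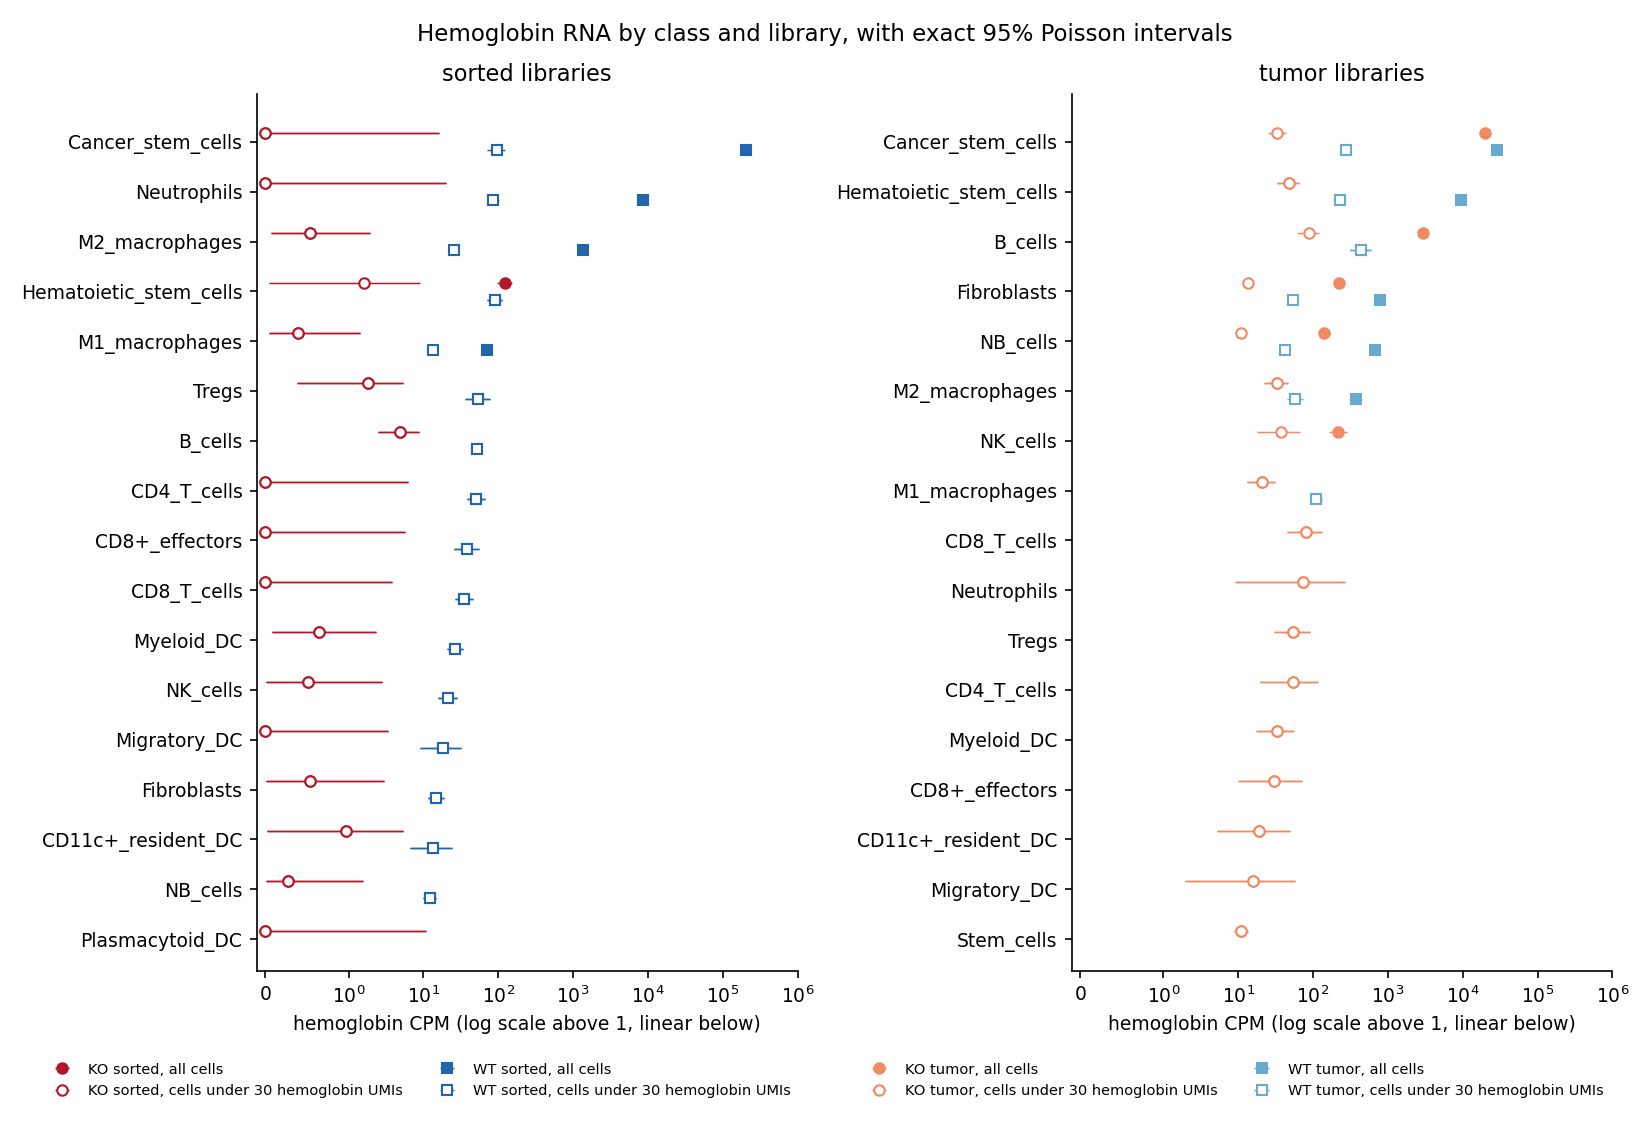
Hemoglobin CPM (logarithmic axis) by cell type name in the KO and WT libraries of the sorted and tumor preparations, over all cells and over cells under 30 hemoglobin UMIs. Cancer_stem_cells stand highest over all cells, at 206933 CPM in the WT sorted library, and at 95.4 CPM once cells of 30 or more hemoglobin UMIs are left out.

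Away from the cells of 30 or more hemoglobin UMIs, a low level of hemoglobin RNA was found in all 16 WT sorted, all 17 KO tumor and all 7 WT tumor classes of at least 20 cells, and in 10 of the 17 KO sorted classes. It amounted to 27 UMIs in 4304 KO sorted cells, 1428 in 5199 WT sorted cells, 1425 in 5879 KO tumor cells and 5332 in 4913 WT tumor cells. The mean per cell was 0.00627 in KO sorted, 0.275 in WT sorted, 0.242 in KO tumor and 1.09 in WT tumor cells. NB_cells carried at least 1 hemoglobin UMI in 28.8% of KO tumor cells (median depth 31545 UMIs) and 68.7% of WT tumor cells (27910). In B_cells the shares were 9.54% of KO tumor (median depth 1145) and 43.1% of WT tumor cells (1491). By the authors' names both classes lie outside the erythroid lineage. Whether these UMIs came from free RNA or from the cells themselves was not tested.

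The shares changed with depth. In cells thinned to 2000 UMIs each, leaving out 1178 KO sorted, 802 WT sorted, 948 KO tumor and 316 WT tumor cells that were shallower, hemoglobin was seen in 0.192% of KO sorted, 7.44% of WT sorted, 3.73% of KO tumor and 12.1% of WT tumor cells. Without thinning these shares were 0.534%, 21.0%, 20.3% and 63.2%. The order of the libraries by thinned share matched that of CPM, which was 0.925 in KO sorted, 23.0 in WT sorted, 13.7 in KO tumor and 52.1 in WT tumor cells.

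Hemoglobin UMIs per cell changed much less with depth than total UMIs did. In the WT tumor library the mean was 0.641 in cells of 500 to 1000 UMIs and 1.80 in cells of 40000 UMIs or more, while CPM was 934 in the shallow and 35.8 in the deep cells. In the KO tumor library the mean was 0.0826 in the shallow and 0.514 in the deep cells, and CPM was 109 and 10.4. In the WT sorted library the mean was 0.189 and 0.616 and CPM 256 and 11.2 in these same depth ranges. In these 3 libraries CPM was higher in the shallow than in the deep cells, and the order of classes by CPM moves with their depth. In the KO sorted library, with few UMIs in each range, CPM was 3.69 in cells of 500 to 1000 UMIs, 4.65 in cells of 1000 to 2000 and 1.12 in cells of 40000 or more. At a like depth of 2000 to 5000 UMIs, the mean was 0.00466 in KO sorted and 0.181 in WT sorted cells, and 0.145 in KO tumor and 0.792 in WT tumor cells.

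**Figure D3:**
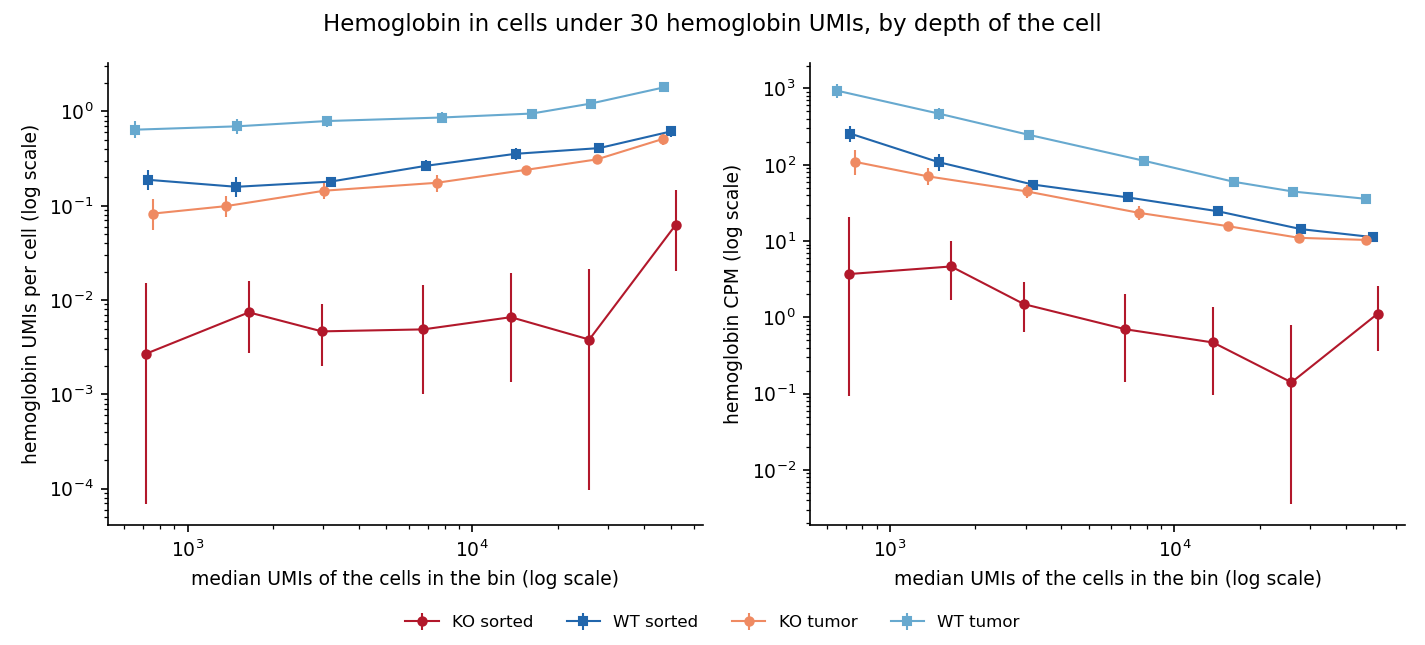
Mean hemoglobin UMIs per cell against total UMIs per cell in cells under 30 hemoglobin UMIs, in bins of depth (logarithmic axes), with exact Poisson intervals, for the KO sorted, WT sorted, KO tumor and WT tumor libraries. The WT tumor line lies highest at every depth, with 0.641 in the shallowest and 1.80 in the deepest bin, and the KO sorted line lowest.

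Within the classes that could be compared, this low level was lower in KO than in WT cells. Classes with at least 20 hemoglobin UMIs over both libraries numbered 14 in the sorted and 7 in the tumor preparation. No KO sorted class had more than 11 of these UMIs, the number in B_cells, so the 14 passed this filter through their WT cells. The filter thus favors ratios below 0 there, and the count of sorted classes supports nothing. Among the 14, 9 had hemoglobin UMIs in both libraries, all with a KO over WT interval below 0 and with a median log2 ratio of -5.36, and 5 had 0 KO UMIs. With these 5 at their bound from the floor of 3 counts, between -3.52 and -2.39, the median of the 14 was -4.84. In the tumor preparation 7 of 7 intervals were below 0, with a median of -2.26. In sorted M1_macrophages it was 0.395 CPM in KO and 13.5 CPM in WT cells. In tumor Fibroblasts it was 13.4 CPM in KO and 54.0 CPM in WT cells, and in tumor NB_cells 10.9 CPM in KO and 41.6 CPM in WT cells. The classes of 1 library share its suspension, so they are not separate replicates of this difference. Over all cells, 13 of 14 sorted classes (5 of them by their bound) and 6 of 7 tumor classes were below 0, and tumor B_cells were above it at 2.73, where 1 KO cell held 1126 of 1209 UMIs.

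Taken gene by gene, the alpha globin Hba-a1 had 33 UMIs in KO sorted and 33867 in WT sorted cells, and 8379 in KO tumor and 17041 in WT tumor cells. Hba-a2 had 21 and 29815 UMIs in KO and WT sorted cells, and 7126 and 13667 in KO and WT tumor cells. The log2 ratios of CPM, KO over WT, were -8.91 for Hba-a1 and -9.37 for Hba-a2 between sorted libraries, and -1.03 and -0.95 between tumor libraries.

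Hbb-bs was the most counted of the 4 globin genes in every library, with 41 UMIs in KO sorted and 100597 in WT sorted cells, and 25153 in KO tumor and 61051 in WT tumor cells. Hbb-bt had 7 UMIs in KO sorted and 24822 in WT sorted cells, and 8278 in KO tumor and 11741 in WT tumor cells. The log2 ratio of CPM, KO over WT, was -10.16 for Hbb-bs and -10.69 for Hbb-bt in the sorted libraries. In the tumor libraries it was -1.29 for Hbb-bs but -0.51 for Hbb-bt, the smallest difference of the 4 globin genes there over all cells. Under 30 hemoglobin UMIs it was -1.84 for Hbb-bt and -1.67 for Hba-a1, so that order did not hold.

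The make-up of the hemoglobin RNA differed between libraries. Alpha chains were 52.9% of the 102 hemoglobin UMIs in KO sorted cells and 33.7% in WT sorted cells, and 31.7% in KO tumor and 29.7% in WT tumor cells. Of the KO sorted UMIs, 75 lay in 1 cell of 26 Hba-a1, 16 Hba-a2, 32 Hbb-bs and 1 Hbb-bt UMIs. Hbb-bt was 14.6% of the beta UMIs in KO sorted (7 UMIs) and 19.8% in WT sorted cells, an order that turned without cells of at least 30 hemoglobin UMIs, and 24.8% in KO tumor and 16.1% in WT tumor cells.

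The Hbb-bt share of the beta UMIs varied from cell to cell more than between the libraries. Of the cells with at least 100 hemoglobin UMIs, it was under 5% in 3 of 15 KO tumor, 7 of 38 WT tumor and 0 of 19 WT sorted cells. The highest was 32.6% in KO tumor, 21.7% in WT tumor and 26.8% in WT sorted cells. A WT tumor cell of the Cancer_stem_cells class had 0 Hbb-bt UMIs among 440 beta UMIs, while 5 KO tumor cells of the same class lay between 28.2% and 29.3%. In cells under 30 hemoglobin UMIs the share was 15.2% in KO tumor, 13.9% in WT tumor and 16.0% in WT sorted cells, and in KO sorted cells 6 of only 15 beta UMIs (16.3% to 67.7%).

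**Figure D4:**
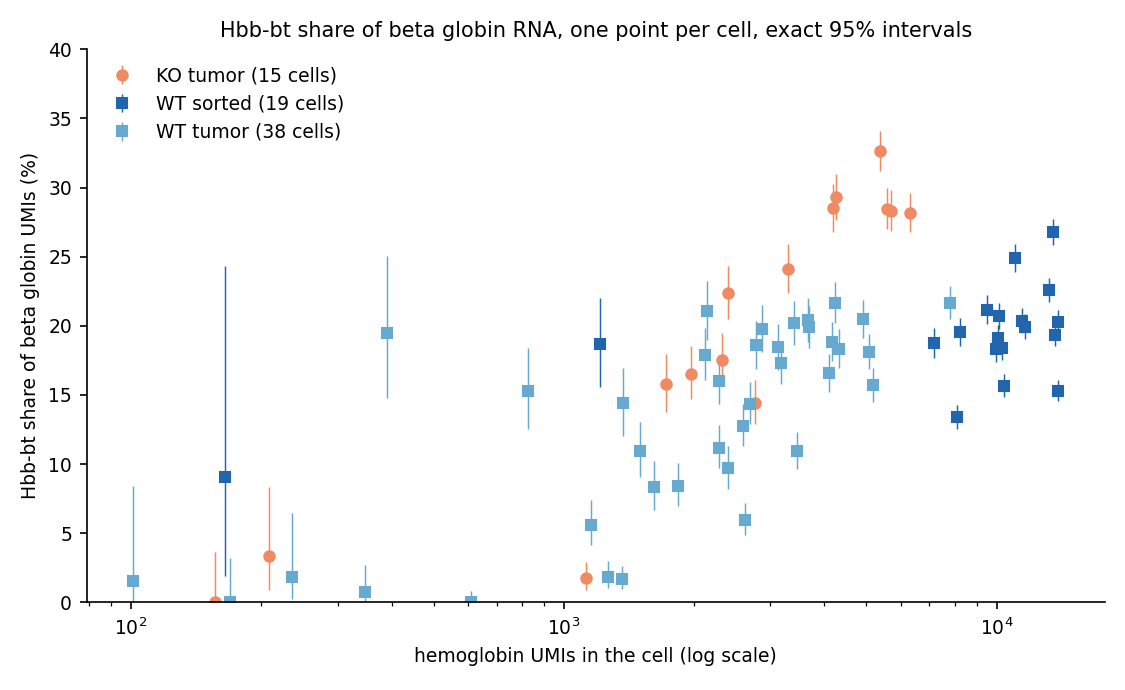
Hbb-bt as a percent of the beta globin UMIs (Hbb-bs and Hbb-bt) in each cell with at least 100 hemoglobin UMIs, against its hemoglobin UMIs (logarithmic axis), for 15 KO tumor, 38 WT tumor and 19 WT sorted cells. KO tumor cells reach 32.6%, WT tumor cells 21.7% and WT sorted cells 26.8%, and 3 KO tumor and 7 WT tumor cells lie under 5%.

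Alas2 followed hemoglobin into the same cells. It had 0 UMIs in KO sorted cells (floor of 3 counts, 0.103 CPM) and 411 in WT sorted cells (6.57 CPM), and 87 in KO tumor (0.838 CPM) and 203 in WT tumor cells (1.97 CPM). This is at least 64.0-fold lower in the KO sorted than in the WT sorted library, and a log2 ratio of -1.23 in the tumor libraries. Cells of at least 30 hemoglobin UMIs held 98.9% of the Alas2 UMIs of the KO tumor library, 97.0% of the WT tumor and 99.0% of the WT sorted library, so that 1, 6 and 4 UMIs remained in all the other cells of these libraries. Alas2 was seen in 11 of 13 KO tumor, 19 of 20 WT tumor and 18 of 18 WT sorted high-hemoglobin cells.

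Per 1000 hemoglobin UMIs, the high-hemoglobin cells held 1.73 Alas2 UMIs in KO tumor (1.36 to 2.15), 2.02 in WT tumor (1.69 to 2.39) and 2.15 in WT sorted libraries (1.95 to 2.37). In cells under 30 hemoglobin UMIs the ratio was 0.702 in KO tumor (0.0178 to 3.91), 1.13 in WT tumor (0.413 to 2.45) and 2.80 in WT sorted libraries (0.763 to 7.17). All 3 of these wide intervals included the value of the high-hemoglobin cells of the same library. By class, Alas2 was highest in Cancer_stem_cells, at 33.7 CPM in KO tumor, 56.9 CPM in WT tumor and 460 CPM in WT sorted cells, and was at 0 in 13 of 17 KO tumor and 2 of 7 WT tumor classes, and in 17 of 17 KO sorted and 10 of 16 WT sorted classes of at least 20 cells.

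Bpgm was spread more widely than the globins and Alas2. It had 238 UMIs in KO sorted (8.15 CPM) and 853 in WT sorted cells (13.6 CPM), and 930 in KO tumor (8.95 CPM) and 1260 in WT tumor cells (12.2 CPM). The high-hemoglobin cells held 44.3% of the WT sorted UMIs, but 6.99% of the KO tumor and 12.1% of the WT tumor UMIs. Its log2 ratio, KO over WT, was -0.74 for sorted and -0.45 for tumor libraries. Without the high-hemoglobin cells it was 0.09 (-0.14 to 0.32) and -0.37, so the difference between the sorted libraries rested on those cells. The class with most Bpgm was Cancer_stem_cells, at 38.8 CPM in KO tumor, 59.3 CPM in WT tumor and 441 CPM in WT sorted cells, while the class had 0 UMIs in the KO sorted library. Without cells of at least 30 hemoglobin UMIs it stood at 8.495 CPM in KO tumor, 4.83 CPM in WT tumor and 1.80 CPM in WT sorted cells, so its place rested on those few cells. Over all cells the median class stood at 7.21 CPM in KO sorted, 8.63 in WT sorted, 7.88 in KO tumor and 17.1 in WT tumor cells.

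Car2 was highest in other classes than hemoglobin in the sorted libraries and in the KO tumor library. It was higher in KO libraries, with 1391 UMIs in KO sorted (47.6 CPM) and 1249 in WT sorted cells (19.98 CPM), and 182 in KO tumor (1.75 CPM) and 66 in WT tumor cells (0.639 CPM). The log2 ratio of CPM, KO over WT, was 1.25 for sorted and 1.46 for tumor libraries, and 1.36 and 2.23 without the high-hemoglobin cells. Its highest class was NK_cells in the sorted libraries, at 375 CPM in KO and 272 CPM in WT cells, where 67.2% of KO and 72.6% of WT cells had a UMI. Thinned to 2000 UMIs, leaving out 34 KO and 15 WT cells, these shares were 47.0% of KO and 34.5% of WT cells. NK_cells were also highest in the KO tumor library, at 239 CPM, against 36.3 CPM in Cancer_stem_cells. In the WT tumor library only 12 cells had the name NK_cells, against 79 in the KO tumor library. These 12 had 16 Car2 UMIs, or 432 CPM (247 to 702), so the lower WT level was not seen within NK_cells. The part of cell numbers in the tumor difference was not tested. Among WT tumor classes of at least 20 cells Cancer_stem_cells were highest, at 29.1 CPM, where 1 cell held 23 of the 25 UMIs. Without cells of at least 30 hemoglobin UMIs that class had 0 Car2 UMIs. NK_cells held 1 hemoglobin UMI in all in the KO sorted and 51 in the WT sorted library, so Car2 was not confined to cells with hemoglobin RNA. The high-hemoglobin cells of the WT sorted library held 93 Car2 UMIs, 7.45% of that library's Car2. Per UMI that was not hemoglobin, Car2 was higher in those cells than in the others, as given below.

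Car2 differed between genotypes in opposite directions from class to class in the sorted libraries. Of 12 classes with at least 20 Car2 UMIs, 5 had a KO over WT interval above 0 and 4 below it. Some of these leaned on 1 cell, which held 30 of the 38 UMIs of WT Myeloid_DC and 23 of the 32 of WT Fibroblasts (both below 0). In KO M2_macrophages (above 0) 1 cell held 20 of 43. NB_cells had 94.4 CPM in KO and 19.9 CPM in WT cells (log2 ratio 2.25), and M2_macrophages 11.6 CPM in KO and 1.67 CPM in WT cells (2.79). Migratory_DC had 33.3 CPM in KO and 62.3 CPM in WT cells (-0.90), and Cancer_stem_cells 13.4 CPM in KO and 123 CPM in WT cells (-3.20). Without the high-hemoglobin cells, 11 classes had at least 20 Car2 UMIs, with 5 above 0 and 3 below it. Cancer_stem_cells then had 3 Car2 UMIs in KO and 4 in WT cells, and their log2 ratio turned to 0.89 (-1.88 to 3.46). In the tumor libraries the high-hemoglobin cells held 42.9% of the KO and 66.7% of the WT Car2 UMIs, and NK_cells another 65 UMIs of the KO library. Of the high-hemoglobin cells themselves, 6 of 13 KO tumor, 5 of 20 WT tumor and 12 of 18 WT sorted cells had a Car2 UMI.

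**Figure D5:**
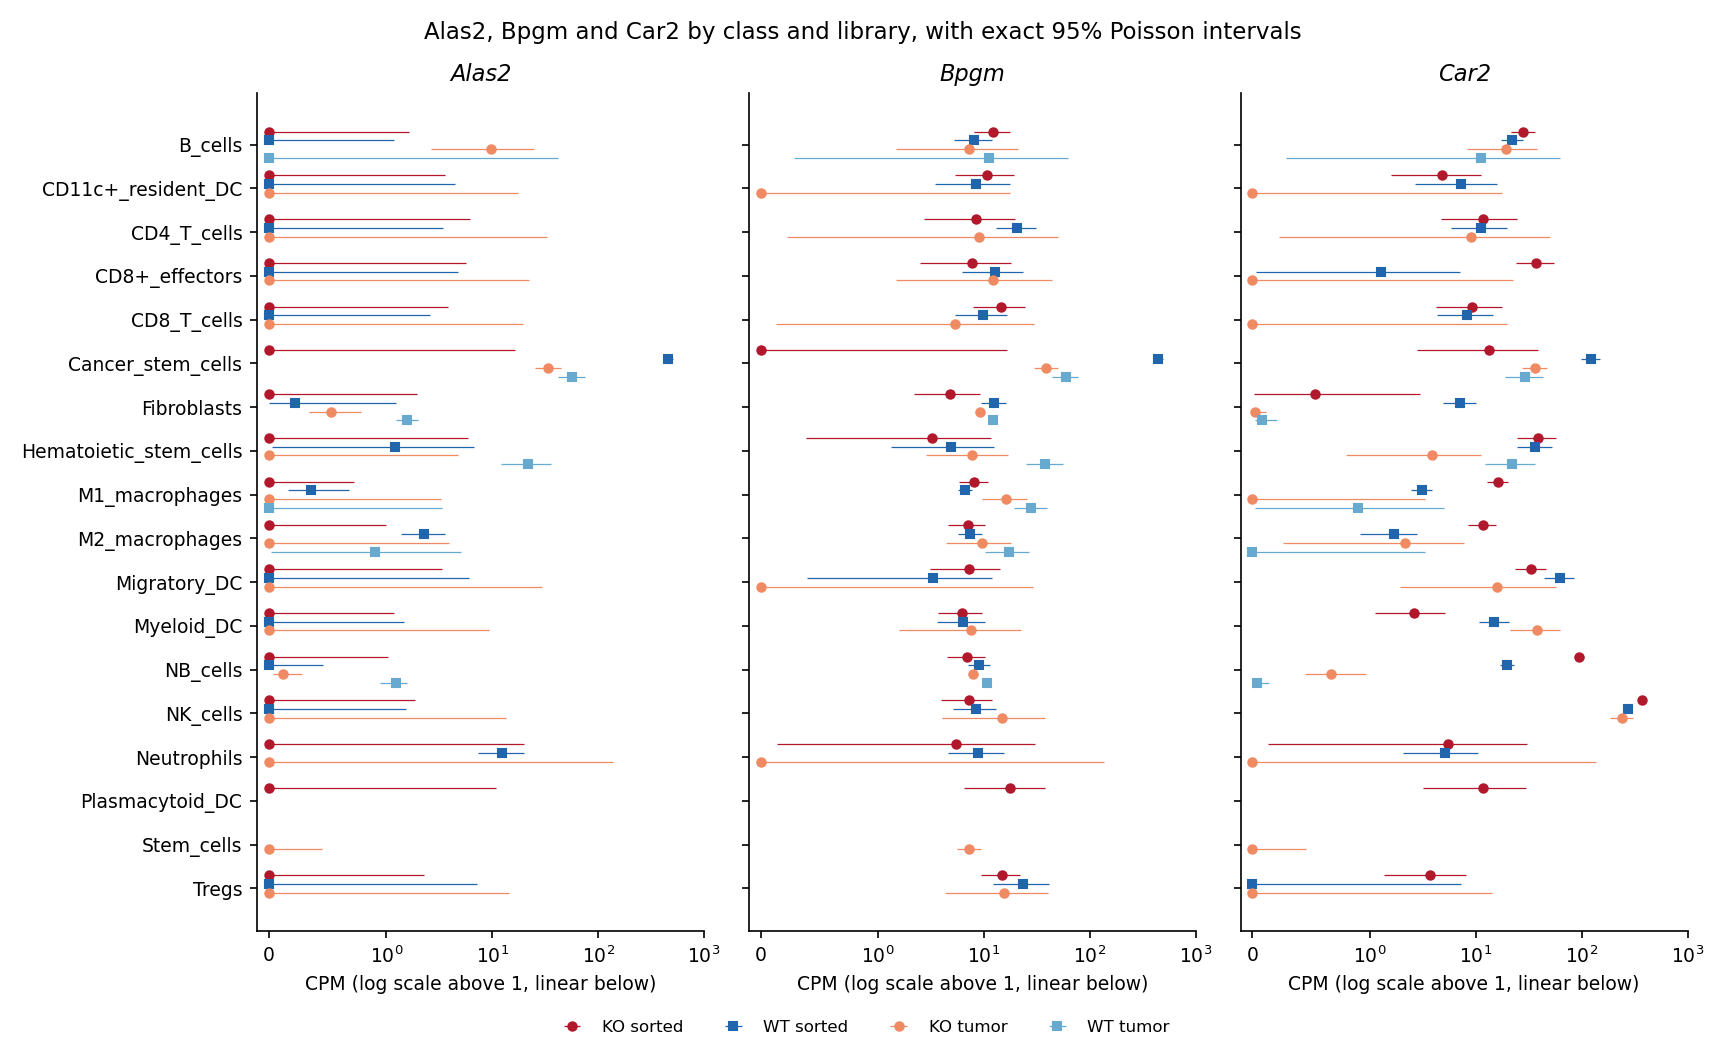
CPM over all cells of Alas2, Bpgm and Car2 by cell type name in the KO sorted, WT sorted, KO tumor and WT tumor libraries (logarithmic axis). Alas2 and Bpgm are highest in Cancer_stem_cells of the WT sorted library, at 460 and 441 CPM, and Car2 in NK_cells, at 375 CPM in the KO sorted and 272 CPM in the WT sorted library.

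Counted at a 2-fold difference over the whole library, 5 of the 7 genes were lower in the KO than the WT sorted library (the 4 globins and Alas2), beside 5.68% of the 13724 genes tested, and 1 was higher (Car2), beside 22.9%. In the tumor libraries 3 were lower (Hba-a1, Hbb-bs and Alas2), beside 5.15% of 14711 genes, and 1 was higher (Car2), beside 15.2%. The 7 genes were chosen with these values known, and nothing is read from the counts.

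Lists of other erythroid genes were set against the same cells. In the high-hemoglobin cells, per UMI that was not hemoglobin, the share of all genes with at least 20 UMIs that were at least 2-fold higher than in the other cells of the library was 17.6% of 550 genes in KO tumor, 4.1% of 1487 in WT tumor and 17.9% of 703 in WT sorted libraries. Lower genes were 0.364%, 0.134% and 5.83% in the same order. A gene passes this filter through the cells where it is high, so the counts that follow describe those cells and support nothing.

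Of the red-cell membrane list, 3 of 3 genes in KO tumor, 2 of 2 in WT tumor and 3 of 3 in WT sorted cells were higher, of 14 in the matrix. Slc4a1, the anion exchanger band 3, had 21 UMIs in high-hemoglobin and 0 in other KO tumor cells and 21 and 5 in WT sorted cells, but 0 in both kinds of WT tumor cells. Epb41, a membrane skeleton protein that many cells make, was higher with log2 ratios of 3.83 in KO tumor, 2.46 in WT tumor and 3.82 in WT sorted cells.

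Of the heme list, 2 of 2 genes in KO tumor, 2 of 3 in WT tumor and 2 of 2 in WT sorted cells were higher, of 13 in the matrix. Fech, the last enzyme of heme synthesis, had log2 ratios of 3.67 in KO tumor, 2.73 in WT tumor and 5.15 in WT sorted cells. Slc25a37, the mitochondrial iron importer mitoferrin 1, had 4.27, 3.20 and 5.39 in the same order.

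The list of late maturation genes had 6 of 6, 7 of 7 and 8 of 8 higher in KO tumor, WT tumor and WT sorted cells, of 17 in the matrix. Mkrn1, a ubiquitin ligase, and Ube2l6, a ubiquitin-like conjugating enzyme, had log2 ratios of 5.07 and 5.41 in KO tumor, 4.17 and 5.43 in WT tumor, and 4.66 and 6.46 in WT sorted cells. Bnip3l, which directs the removal of mitochondria from reticulocytes, had 2.47 in KO tumor, 1.16 in WT tumor and 2.61 in WT sorted cells.

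Genes of early erythroid cells had few or no UMIs each in the high-hemoglobin cells. None of the 12 erythroid transcription factor genes in the matrix reached 20 UMIs there, and Gata1, Klf1, Tal1, Gfi1b, Nfe2 and Myb had 0 UMIs in the high-hemoglobin cells of all 3 libraries. Of the 12, 7 were at 0 in KO tumor, 8 in WT tumor and 8 in WT sorted high-hemoglobin cells. The whole list summed to 8, 24 and 36 UMIs in that order. Per non-hemoglobin UMI this was 98.05, 108 and 322 CPM, against 137, 98.8 and 253 CPM in the other cells, so the list as a whole was not lower in all 3 libraries. At the number of such cells here, a low level was not detectable. Of the 4 other globins in the matrix (Hbq1a, Mb, Ngb and Cygb) none reached 20 UMIs, and Hbq1a had 0 in KO tumor, 0 in WT tumor and 4 in WT sorted cells.

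Antioxidant and glycolytic enzymes of red cells differed less. Leaving out the members Bpgm and Car2, 3 of 4 in KO tumor, 1 of 5 in WT tumor and 4 of 5 in WT sorted cells were at least 2-fold higher. Gpx1, a glutathione peroxidase, had log2 ratios of 2.91 in KO tumor, 1.70 in WT tumor and 2.39 in WT sorted cells, while the glycolytic Aldoa had -0.17, 0.05 and -0.66. Bpgm itself had 6.58, 5.99 and 8.79, and Car2 9.90, 9.85 and 5.48 in that order.

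Over whole libraries these lists were counted at the same 2-fold difference as the 7 genes, beside the same shares of all genes. Of the heme list, 2 of 13 were at least 2-fold higher and 0 lower in KO than WT sorted cells, and 0 higher and 1 lower in KO than WT tumor cells. Of the membrane list it was 0 higher and 1 lower of 4 for sorted and 3 higher and 0 lower of 9 for tumor libraries. The transcription factor list had 6 higher and 0 lower of 9 for sorted and 4 higher and 1 lower of 9 for tumor libraries, among them Bcl11a, which is also a B cell gene, at 119 CPM in KO and 23.1 CPM in WT sorted cells. The maturation list had 4 higher and 3 lower of 16 for sorted and 1 higher and 0 lower of 16 for tumor libraries, and the red-cell enzymes other than Bpgm and Car2 had 1 higher and 2 lower of 8 for sorted and 0 of 8 past 2-fold for tumor libraries. The median log2 ratio of the heme list was 0.10 for sorted and 0.02 for tumor libraries, that of the transcription factors 1.29 and 0.63, and that of all genes 0.40 and 0.27.

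The genes whose levels ran most like hemoglobin were sought over 57 profiles, each a class of at least 20 cells in 1 library, by Pearson correlation of log2(CPM + 1). Profiles of 1 library share its suspension and depth, and the values are descriptions. Of 15708 genes, those most alike outside the 7 included Rec114 (r = 0.65), Apol11b (0.61) and Trim10 (0.60). Taken by library, Rec114 had 0.83 over the WT sorted, 0.76 over the KO tumor and only 0.09 over the WT tumor profiles. Over all 57 profiles Alas2 had 0.80, Bpgm 0.49 and Car2 -0.02, which placed Car2 at rank 6295. Within single libraries Car2 had 0.14 over the 17 KO sorted, 0.11 over the 16 WT sorted, 0.45 over the 17 KO tumor and 0.75 over the 7 WT tumor profiles. Bpgm had -0.12, 0.69, 0.44 and 0.68 in the same order. The WT tumor profiles left out NK_cells (12 cells, 16 Car2 UMIs). In those profiles 1 cell held 23 of the 25 Car2 UMIs of Cancer_stem_cells, and 1 cell all 15 of Hematoietic_stem_cells.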

How the data were processed

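Single-cell libraries of NB9464D tumors were analysed as 4 groups, KO sorted, WT sorted, KO tumor and WT tumor. Cell Ranger 6.0.1 and Seurat 4.0.5 on mm10 were used upstream, per the submitters' processing notes, which give them no role. The authors deposited natural log values, ln(1 + 10000 × share of a cell's UMIs that fell on the gene), in a matrix they named counts, and per-cell totals, gene numbers, percent mitochondrial UMIs and cell type names beside it. How they filtered cells is not given in the sources used here. Counts were recovered by inverting this formula with the deposited total count of each cell. All of the 60957742 nonzero values came out whole to within 0.01 UMI, and the recovered UMIs of all 20376 cells added up to the deposited totals.

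UMIs were summed per gene, library and cell type name and divided by the total of those cells (CPM). All intervals are at 95%: conditional binomial for ratios, Clopper-Pearson for shares and exact Poisson for single CPM values. A ratio against 0 UMIs was taken against a floor of 3 counts per library. Genes counted at 2-fold had at least 50 UMIs over both libraries, and genes set between high-hemoglobin and other cells had at least 20 UMIs in the high-hemoglobin cells. No cells were removed and no doublet caller was run. As an alternative, cells with at least 3 markers of each of 2 lineages were left out: 412 KO sorted (9.57%), 819 WT sorted (15.7%), 186 KO tumor (3.15%) and 80 WT tumor cells (1.61%). Thinning used seed 1. The 7 genes, the lists and the thresholds were chosen with earlier results of these data known. Genes named are the 7 members, up to 6 of each list with at least 20 UMIs in the high-hemoglobin cells, and genes ranked by likeness to hemoglobin; some genes that meet this rule are not reported here. Genes named at 0 or below that filter (Hbq1a and the other globins, the transcription factors) were chosen after their values were seen.

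Other settings tried were equal weight per cell, thinned UMIs, stricter cells (at least 1000 UMIs and at most 10% mitochondrial), the median gene as reference, alpha or beta genes alone, other thresholds of high hemoglobin, and leaving out doublets. Leaving out cells of at least 30 hemoglobin UMIs and leaving out shared barcodes were added after seeing the data. Promoter sequences are RefSeq's on GRCm38.p6. Python 3.11.15, numpy 2.4.6, scipy 1.17.1, pandas 2.3.3, matplotlib 3.10.9 and Biopython 1.88 were used, and the ratio and recovery steps were tested on simulated data.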

Additional observations from a re-analysis of the deposited data

Results flagged for a closer look

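In B_cells the difference between genotypes ran in opposite directions in the sorted and the tumor preparations, which is untested because each group is 1 library. The log2 ratio of CPM, KO over WT, was -3.39 in sorted and 2.73 in tumor B_cells for hemoglobin, -2.18 and 2.69 for Hba-a1, -3.27 and 3.62 for Hba-a2, and -5.10 and 2.92 for Hbb-bs. In the KO tumor library 1 of these cells held 1126 of the 1209 hemoglobin UMIs, and without cells of at least 30 hemoglobin UMIs the tumor ratio was -2.32.

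In Hematoietic_stem_cells the alpha genes also ran in opposite directions, again untested. Hba-a1 had 1.65 in the sorted and -7.49 in the tumor preparation, and Hba-a2 had 1.496 and -7.61. In the KO sorted library 1 cell held 75 of 76 hemoglobin UMIs of the class, and in the WT tumor library 2 cells held 5186 and 1156 of 6493. Without cells of at least 30 hemoglobin UMIs the hemoglobin ratio of the class was -5.82 in the sorted and -2.26 in the tumor preparation.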

How the results depend on the processing

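No paired analysis was possible because cells are labelled by group alone, with no replicate number, and for the same reason no replicate could be left out. The hemoglobin log2 ratio, KO over WT, was below 0 under each setting given here and without shared barcodes, but its size moved. Leaving out doublets was tried for levels by class and not for this ratio. In the sorted libraries (-9.76 as reported) it was -6.65 with equal weight per cell, -11.24 with thinned UMIs, -11.91 in stricter cells, -10.16 relative to the median gene, -10.25 for beta and -9.11 for alpha genes alone, -3.62 without high-hemoglobin cells and -4.64 without cells of at least 30 hemoglobin UMIs. In the tumor libraries (-1.09) the same settings gave -0.50, -0.17, -0.68, -1.36, -1.13, -0.99, -3.31 and -1.92. The Bpgm ratio in the sorted libraries was 0.0942 (-0.136 to 0.322) without the high-hemoglobin cells, an interval that includes 0.

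The percent of hemoglobin UMIs in high-hemoglobin cells was 73.5 in KO sorted at 5% or at 30 UMIs. It was 96.4 in KO tumor and 87.3 in WT tumor libraries at 5%, and 71.4 in KO tumor, 29.4 in WT tumor and 98.5 in WT sorted libraries at 25%. At 30 UMIs it was 97.1, 94.8 and 99.2, and in stricter cells 93.4, 67.5 and 98.7, in that order of libraries. The cause was not tested. Relative to the median gene, 1463 genes were at least 2-fold higher and 1768 lower in KO than WT sorted cells, against 3147 and 779 as reported. With 1 library per group, 27 hemoglobin UMIs under the 30-UMI limit in KO sorted cells and at most 20 high-hemoglobin cells per library, counting error in single classes is wide, and the differences have no replicate check.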
